A study of Drosophila melanogaster with 8 samples.

Results

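The heat shock genes of the adult fly intestine were described from their levels in flies fed with or without N-acetyl-D-glucosamine (GlcNAc), an amino sugar that enters the hexosamine biosynthesis pathway. The set named 8 genes by symbol, namely the small heat shock proteins Hsp22, Hsp23, Hsp26, Hsp27 and Hsp67Bc, the large heat shock proteins Hsp68 and Hsp83, and the heat shock factor Hsf. Of these 8 genes, 3 had a row in the table of 7671 genes: Hsp68, Hsp83 and Hsf. The other 5, which are all of the small heat shock proteins of the set, are not analysed here.

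Mated Drosophila melanogaster females, 7 days old, were moved for 24 hours to food diluted to 0.25 of its usual strength. The GlcNAc group (4 samples) received 0.1 M GlcNAc in this food, and the control group (4 samples) received none. All flies of both groups carried a UAS-mCD8::GFP reporter, 1 copy of tub-GAL4, the hsFLP transgene and an FRT82B chromosome with tub-GAL80 over a second FRT82B chromosome. In hsFLP a heat shock promoter drives the FLP recombinase, so the transgene itself is a target of the heat shock response, and the methods name a heat treatment for clone induction but none for the RNA-seq flies. Each sample gave 1 strand-specific library from dissected intestines. The labels name the samples independent, but how many intestines each one held is not given in the sources used here, and the labels call the source whole larvae in one field and the tissue intestine in another.

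The heat shock response protects cells from misfolded proteins. Under heat or other proteotoxic stress, Hsf binds as a trimer to heat shock elements in the promoters of chaperone genes and raises their transcription, and chaperones in turn hold Hsf inactive when stress ends. Hsp68 is a stress-inducible member of the Hsp70 family, and Hsp83 is the cytosolic Hsp90 of the fly, which is abundant without stress and rises further under heat.

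The libraries held 8839877 to 9838415 reads on the tabulated genes in control and 9281492 to 10326189 in GlcNAc, so depth differed little. Levels are given as CPM, read counts scaled to the size of the library, obtained as 2 to the power of the deposited log2 values. Of the 7671 genes, 1177 (15.3%) passed an adjusted p of 0.05 in limma, a linear model fitted to all genes, with 671 (8.75%) higher and 506 (6.6%) lower on GlcNAc. Markers of enterocytes, the absorptive cells of the gut, were present for 9 of 10 listed genes and summed to 80999.5 to 96201 CPM in control and 66375 to 75364 CPM in GlcNAc. This sum was lower in every GlcNAc library than in every control library, but 3 digestive proteases (alphaTry, Jon65Aiii and Jon65Aiv) made up 74672 to 88853 CPM of it in control and 60654 to 70209 CPM on GlcNAc. Of the 9 enterocyte markers, 7 had differences below 0. In limma 2 passed as lower (Jon99Ciii and Jon99Cii, adjusted p = 0.0108 and 0.0358) and 0 as higher, and voom called 4 lower. The enterocyte markers nub and mex1, the 2 with differences above 0, had log2 differences of 0.21 and 0.33 and did not pass. In the table, 1 Malpighian tubule marker of 5 listed, Alp4, was present and higher in every GlcNAc library (14.6 to 69.3 CPM, against 3.44 to 13.9 CPM). The other listed tubule markers had no row, so this rests on 1 gene and does not show the content of that tissue. The 9 enteroendocrine markers in the table summed to 274 to 343 CPM in control and 323 to 366 CPM on GlcNAc. Of these, 3 passed as higher in limma (AstA, CCHa2 and Dh31), voom called 2 higher, and 8 had differences above 0. Of 11 visceral muscle markers, 1 passed as lower (Act57B) and 10 had differences below 0, with sums of 1210 to 1691 CPM in control and 1054 to 1450 CPM on GlcNAc. The 6 progenitor markers had 0 past the threshold in limma, 0 at an unadjusted p under 0.05 and 0 by voom. The part of these shifts in the differences reported here was not tested. Among other tissues, the 3 of 11 ovary markers in the table summed to at most 6.21 CPM in any library.

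Of the 3 heat shock genes, 1 (Hsf) passed the test as lower on GlcNAc, against 6.6% of all genes, and 0 passed as higher. At an unadjusted p under 0.05, limma placed 2 of the 3 lower and 0 higher, against 12.4% and 15.2% of all genes. With voom, which weights the recovered reads by their precision, 1 passed as lower and 0 as higher, against 6.66% and 8.63% of all genes. Hsp68 had the largest difference of the 3 but also the largest spread between libraries. Hsp83 was high in every library and its groups overlapped.

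The transcription factor Hsf (FBgn0001222) lies on chromosome 2R at 18130303 to 18134634 on the minus strand of BDGP6, with 8 exon blocks and 2910 exonic bases. Its level was 46.1, 44.9, 42.7 and 47.0 CPM in control replicates 1 to 4, and 34.8, 37.8, 36.2 and 38.4 CPM in GlcNAc replicates 1 to 4, from 338 to 444 reads per library. The lowest control library was above the highest GlcNAc library, a separation in this direction that 9.24% of all genes showed. Hsf fell on GlcNAc from 45.2 ± 1.86 to 36.8 ± 1.62 CPM (SD, n = 4), a level 1.23-fold lower (95% confidence interval 1.11 to 1.35). On the log2 scale the difference was -0.30 with a standard error of 0.06 (limma, adjusted p = 0.0110), and the two-sided exact permutation test gave 0.0286, the smallest p that 4 against 4 libraries allow. Since whole intestines were sampled, fewer cells of a type and less RNA per cell cannot be told apart.

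The inducible chaperone Hsp68 (FBgn0001230) lies on chromosome 3R at 24055080 to 24057310 on the minus strand, in 1 exon block of 2231 bases. It stood at 84.8, 21.8, 97.9 and 64.1 CPM in control replicates 1 to 4. In GlcNAc replicates 1 to 4 it stood at 20.8, 4.33, 34.0 and 31.9 CPM, with 41 reads in the lowest library and 878 in the highest of the 8. The groups overlapped through control replicate 2, which was below GlcNAc replicates 3 and 4. The other 3 control libraries were above every GlcNAc library.

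The mean of Hsp68 was 67.1 ± 33.3 CPM in control and 22.8 ± 13.6 CPM on GlcNAc (SD, n = 4). Its log2 difference was -1.72 with a standard error of 0.65, or 3.30-fold lower on GlcNAc with a 95% confidence interval of 1.20 to 9.05. Because limma draws the spread of a gene toward that of other genes, this interval is narrower than the spread of Hsp68 alone gives. Only 0.235% of all genes had a more negative log2 difference, a ranking that takes no account of the spread between libraries. It did not pass the threshold (limma, unadjusted p = 0.0248, adjusted p = 0.113), nor did the two-sided exact permutation test (p = 0.0857). A fit with the replicate number as a block gave Hsp68 an adjusted p from limma of 0.000687. The labels do not state that equal numbers mark a shared collection. Without control replicate 2 the log2 difference was -2.20 and the adjusted p from limma was 0.0473, and without GlcNAc replicate 2 the difference was -1.05 and the adjusted p was 0.164. With both libraries numbered 2 left out, an alternative chosen after the data were seen, the difference was -1.52 with an adjusted p of 0.00196.

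The cytosolic Hsp90 gene Hsp83 (FBgn0001233) lies on chromosome 3L at 3192969 to 3197059 on the plus strand, with 2 exon blocks and 2960 exonic bases. Its level was 1832, 884, 2273 and 1499.7 CPM in control replicates 1 to 4, and 1029, 684, 1987 and 1218 CPM in GlcNAc replicates 1 to 4. The groups overlapped, since GlcNAc replicate 3 was above every control library but control replicate 3. The mean of Hsp83 was 1622 ± 585 CPM in control and 1230 ± 551 CPM on GlcNAc (SD, n = 4), above the mean level of 98.7% of the genes in the table. The log2 difference was -0.42 with a standard error of 0.34 (limma, adjusted p = 0.473, exact permutation p = 0.4). In folds, the 95% confidence interval of control over GlcNAc ran from 0.799 to 2.25 and included no difference. The log2 difference was -0.18 without GlcNAc replicate 2, -0.23 without control replicate 3 and -0.69 without control replicate 2 or without GlcNAc replicate 3, none of which passed the threshold. Fitted with the replicate number as a block, Hsp83 had an adjusted p from limma of 0.031.

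**Figure D1:**
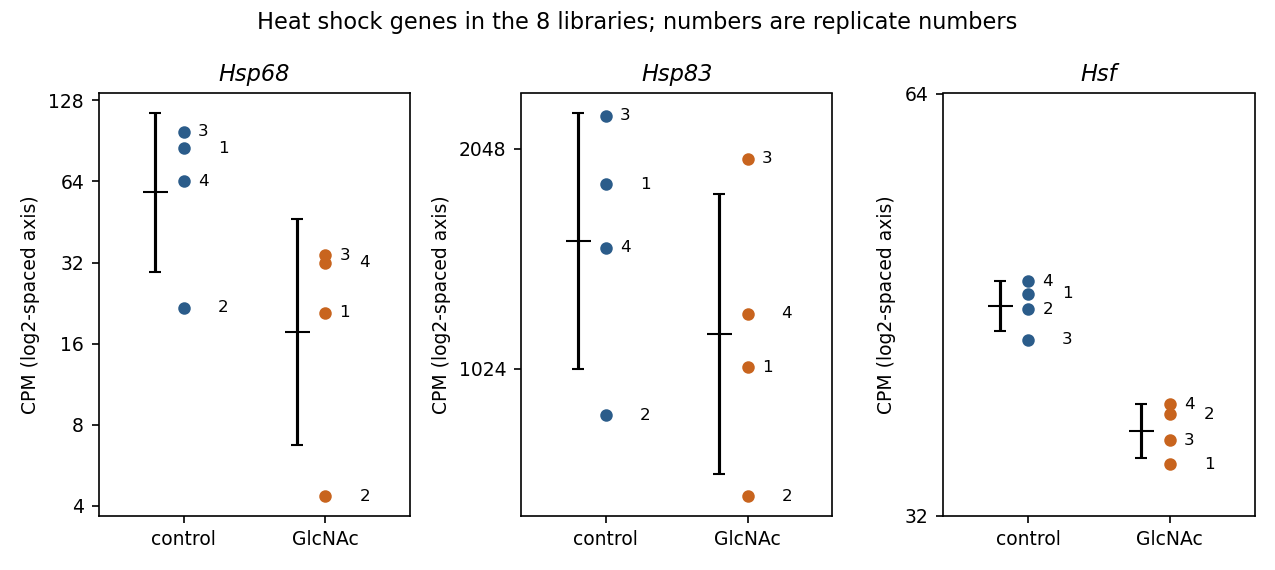
Levels of Hsp68, Hsp83 and Hsf in CPM on a log2-spaced axis for the 4 control (blue) and 4 GlcNAc (orange) libraries, with replicate numbers beside the points and bars for the mean ± SD of the log2 values. Replicate 2 is the lowest library of both groups for Hsp68 and Hsp83, while the Hsf groups do not overlap.

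Per kilobase of exonic sequence, Hsp83 was the most abundant of the 3 transcripts, at 548 ± 198 CPM per kilobase in control and 415 ± 186 on GlcNAc (SD, n = 4). Hsp68 was at 30.1 ± 14.9 in control and 10.2 ± 6.09 on GlcNAc, and Hsf at 15.5 ± 0.638 and 12.7 ± 0.558, so that the mean of Hsp68 was above that of Hsf in control and below it on GlcNAc. The order of Hsp83 above both others held in all 8 libraries. Hsp68 and Hsf did not keep an order, as Hsp68 was above Hsf per kilobase in 3 of 4 control and in 2 of 4 GlcNAc libraries. In CPM, the ratio of Hsp83 to Hsp68 was 21.6, 40.7, 23.2 and 23.4 in control replicates 1 to 4 and 49.4, 158, 58.5 and 38.2 in GlcNAc replicates 1 to 4. These ratios overlapped between the groups only in that control replicate 2 was above GlcNAc replicate 4.

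The spread between libraries of the same condition set the 2 chaperones apart from Hsf. The residual standard deviation of log2 CPM was 1.20 for Hsp68, and only 44 of the 7671 genes had a larger one. It was 0.61 for Hsp83, with 273 genes above it, and 0.0619 for Hsf, with 7263 genes above it. The median over all genes was 0.155. From the lowest to the highest of all 8 libraries, Hsp68 ranged 22.6-fold, Hsp83 3.32-fold and Hsf 1.35-fold.

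**Figure D2:**
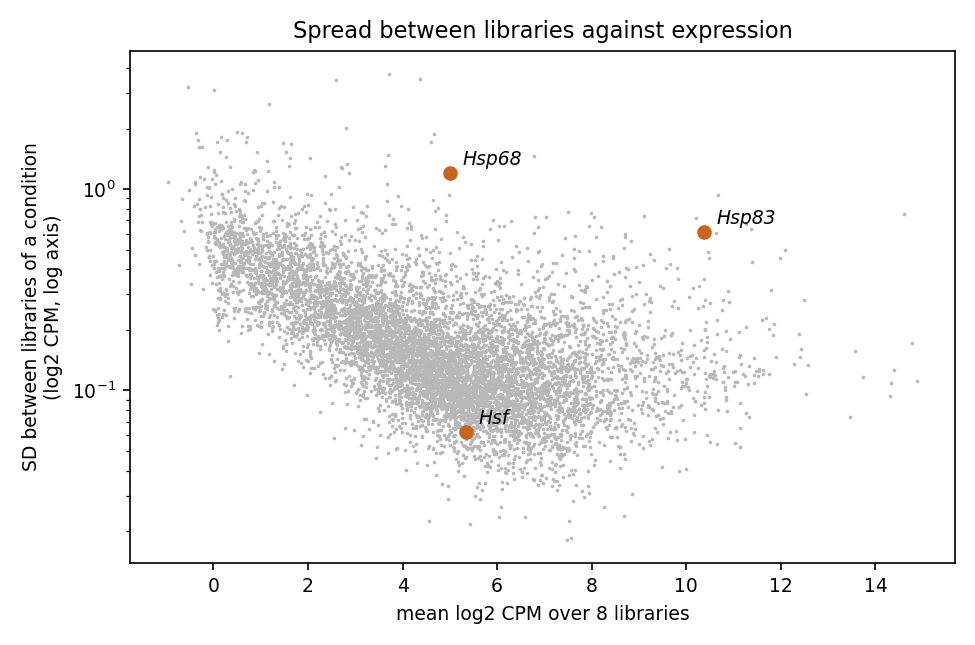
Residual standard deviation of log2 CPM between libraries of a condition (log axis) against mean log2 CPM over the 8 libraries, for all 7671 genes (grey) and the 3 heat shock genes (orange). Hsp68 (1.20) and Hsp83 (0.61) lie above most genes of similar level, and Hsf (0.0619) lies toward the lower edge.

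Hsp68 and Hsp83 ranked the libraries alike. In control both were highest in replicate 3, then 1, 4 and 2, and on GlcNAc both were highest in replicate 3, then 4, 1 and 2. Of the 7670 other genes, 79 (1.03%) had the order of Hsp83 in both conditions, and Hsp68 was 1 of them. Hsf ranked them otherwise, with replicate 4 highest in both conditions and replicate 3 lowest in control. The 4 listed fat body markers in the table, among 7 listed, summed to 23.9, 664, 221 and 279 CPM in control replicates 1 to 4 and to 138, 344, 114 and 104 CPM in GlcNAc replicates 1 to 4. They were therefore highest in replicate 2 of each group, the libraries lowest in Hsp68 and Hsp83. The sum of the enteroendocrine markers was also highest in replicate 2 of each group, at 343 CPM in control and 366 CPM on GlcNAc. The part of either sum in the spread was not tested.

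By the smallest root mean square difference of the log2 profile, centred on its mean, over the 8 libraries, among genes of at least 5 CPM, the genes nearest to Hsp68 were CG33958 at a distance of 0.456 and CG12970 at 0.596. CG12970 passed the test as lower on GlcNAc, with a log2 difference of -1.50 (limma, adjusted p = 0.0335), and CG33958 had a difference of -1.27 (limma, adjusted p = 0.288). The profile of Hsp83 was nearest to those of CG16890 at 0.198 and fal at 0.258. Hsf was nearest to alphaTub84D, an alpha-tubulin gene, at 0.0446 and to ND-13A, which encodes a subunit of respiratory complex I, at 0.0499, and both passed the test as lower (log2 differences of -0.31 and -0.25). These distances are a description over libraries that share the GlcNAc contrast.

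The wider chaperone network was taken as 8 lists with 77 genes outside the set, of which 54 were in the table. Of these 54 genes, 4 passed as lower on GlcNAc (7.41%, against 6.6% of all genes) and 0 as higher. At an unadjusted p under 0.05, limma placed 9 lower and 1 higher, against 12.4% and 15.2% of all genes, and voom called 4 lower and 0 higher, against 6.66% and 8.63%. The log2 difference was below 0 for 41 of the 54 genes and for 47.2% of all genes, with a median of -0.09, against 0.01 over all genes.

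Partners of Hsp83 came first among the named genes. CG1416, a homologue of the Hsp90 activator Aha1, was at 70.9, 59.4, 80.6 and 80.9 CPM in control replicates 1 to 4 and at 52.9, 42.0, 58.2 and 50.7 CPM in GlcNAc replicates 1 to 4. The groups did not overlap, and the highest 2 libraries were control replicates 3 and 4. CG1416 fell on GlcNAc by 0.52 on the log2 scale with a standard error of 0.12 (limma, adjusted p = 0.017, or 0.054 without control replicate 4). Hop, which bridges Hsp70 and Hsp90, had 174 ± 23.2 CPM in control and 128 ± 23.2 CPM on GlcNAc (SD, n = 4). Its log2 difference of -0.45 did not pass the threshold (limma, adjusted p = 0.053). With 1 library left out, the adjusted p from limma ran from 0.026 (without control replicate 2) to 0.132 (without control replicate 3). Hop passed in 6 of 18 other treatments of the data. CG16817, a homologue of the Hsp90 co-chaperone p23, had a difference of -0.05. The co-chaperone list counted 1 lower and 0 higher of 13 genes in the table.

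Among the Hsp70 and Hsp110 chaperones, the relatives of Hsp68, 4 of 10 listed genes were in the table and 1 was lower. Hsc70Cb, the Hsp110 that exchanges nucleotide on Hsp70, fell by 0.29 on the log2 scale (limma, adjusted p = 0.023), with means of 175 ± 11.2 CPM in control and 143 ± 11.6 CPM on GlcNAc (SD, n = 4). It missed the threshold without control replicate 1 or 3 or without GlcNAc replicate 1, 2 or 4, at adjusted p-values of 0.061, 0.060, 0.061, 0.051 and 0.058, and also with library totals in place of the scaling factor (0.059) and without limma's trend (0.053). Hsp70Bb, a strictly heat-inducible Hsp70 gene, was at 13.3 ± 6.26 CPM in control and 12.3 ± 2.51 CPM on GlcNAc (SD, n = 4). It has near-identical copies among which reads can be split, so its level is uncertain. Hsc70-2 was at 16.8 CPM in control and 16.7 CPM on GlcNAc.

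The J domain proteins, which deliver substrates to Hsp70, counted 1 lower of 11 genes in the table. This was CG7133, at 34.6 ± 2.73 CPM in control and 27.8 ± 1.18 CPM on GlcNAc (SD, n = 4), which fell by 0.31 on the log2 scale (limma, adjusted p = 0.021). It missed the threshold without control replicate 3 or 4 or without GlcNAc replicate 1 or 4, at adjusted p-values of 0.051, 0.058, 0.060 and 0.053, and also with library totals in place of the scaling factor (0.078). The highest expressed genes of this list, Droj2 and CG10565, had differences of -0.20 and -0.09 and did not pass. The heat-inducible genes stv and DnaJ-1, co-chaperones of Hsp70, had differences of 0.17 and -0.30 and did not pass either. Of the small heat shock proteins outside the set, l(2)efl and CG14207 were in the table, at -0.21 and 0.03, and neither passed.

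Regulators of Hsf and of transcription at heat shock genes counted 1 lower and 0 higher of 12. Sirt1, the fly homologue of a deacetylase that in mammals prolongs the binding of heat shock factor to DNA, had 104 ± 2.88 CPM in control and 86.7 ± 7.75 CPM on GlcNAc (SD, n = 4) and fell by 0.26 on the log2 scale (limma, adjusted p = 0.0295). Its call was lost when any library but GlcNAc replicate 3 was left out, with adjusted p-values from 0.051 to 0.083, and also with library totals in place of the scaling factor (0.072) and without limma's trend (0.061). Spt5, an elongation factor, had a difference of -0.18 (limma, adjusted p = 0.080).

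The cytosolic chaperonin, a ring complex that folds actin and tubulin, and the mitochondrial chaperones had 0 genes past the threshold. All 8 chaperonin subunits had log2 differences below 0, from -0.18 to -0.06, but limma placed 0 of them under an unadjusted p of 0.05 and voom called 0. Cct5 and CG8258, the most abundant subunits, had differences of -0.17 and -0.06. Of the 5 mitochondrial chaperones in the table, Hsp60A was at 430 ± 36.6 CPM in control and 530 ± 58.4 CPM on GlcNAc (SD, n = 4), a log2 difference of 0.30 just short of the threshold (limma, adjusted p = 0.052). It was the only one of the 54 genes with a positive difference and an unadjusted p under 0.05. Hsc70-5, the mitochondrial Hsp70, had a difference of 0.03. By voom, 0 of the 5 passed.

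**Figure D3:**
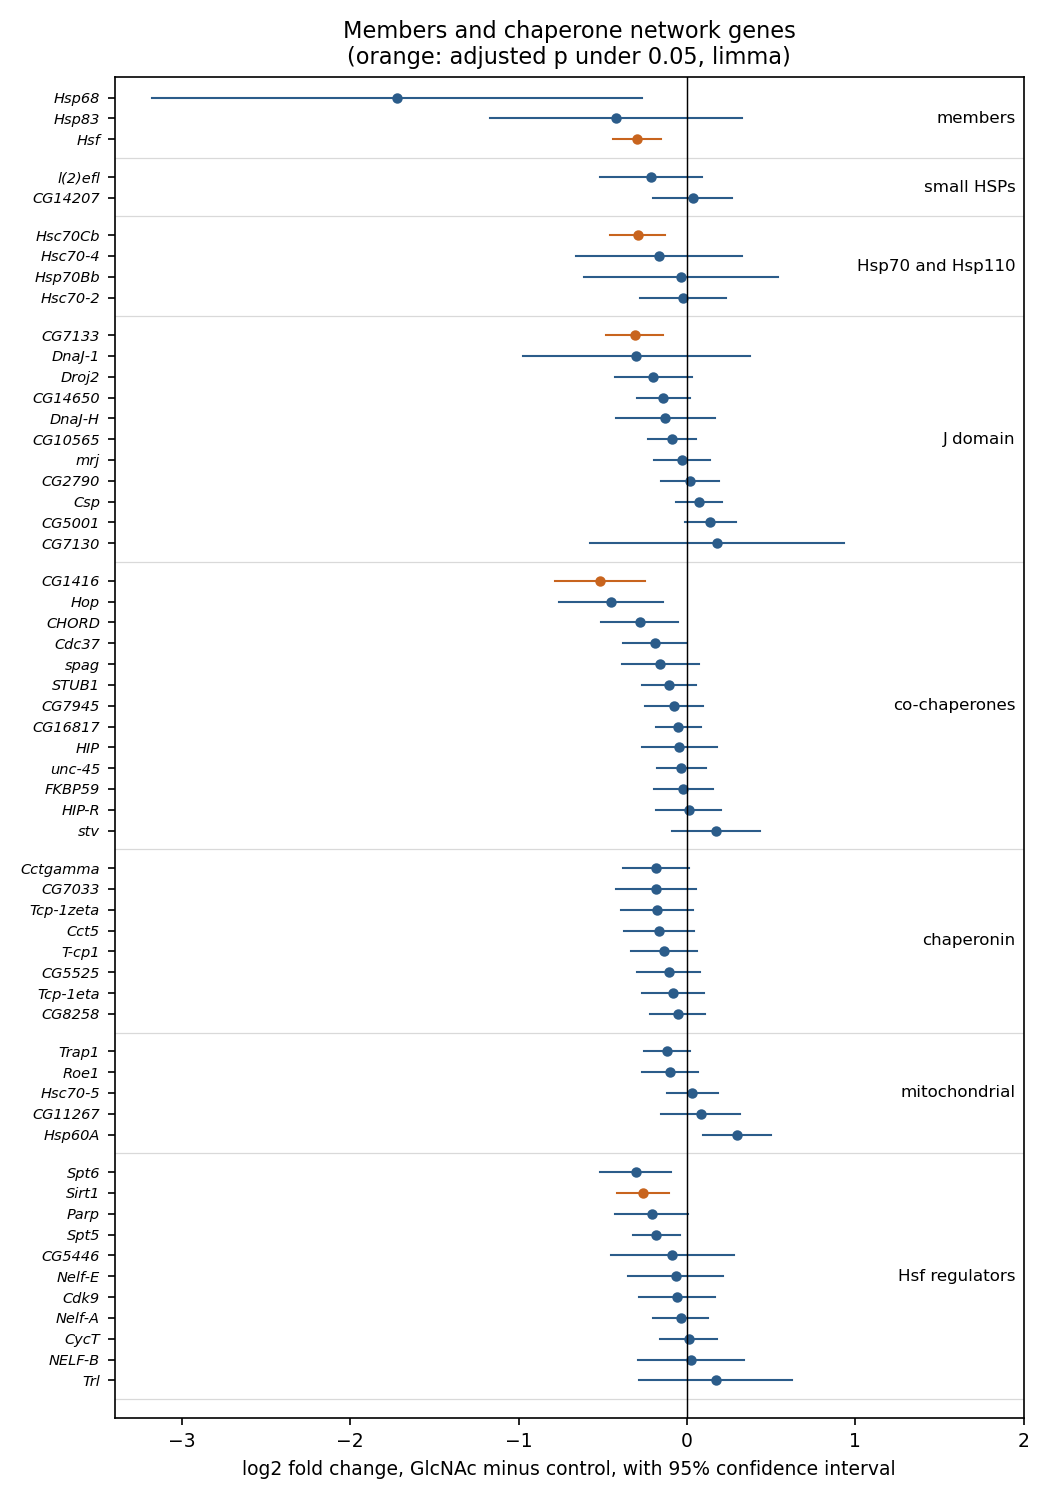
Log2 fold change, GlcNAc minus control, with its 95% confidence interval from limma for the 3 heat shock genes (members) and the 54 network genes in the table, each shown once under its first list. The 5 orange genes (Hsf, Hsc70Cb, CG7133, CG1416 and Sirt1) passed an adjusted p of 0.05, all as lower, and the interval of Hsp68 is the widest.

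The direction of the 3 heat shock genes was the same under the 18 other treatments of the table that were tried. The filter on CPM, the replicate block and limma without its trend cannot change the log2 difference of a gene. Since the Hsf groups did not overlap, leaving out 1 library could not reverse Hsf either. The log2 difference of Hsf lay between -0.32 and -0.24 and passed the threshold in all 18. That of Hsp68 lay between -2.20 and -1.05 and that of Hsp83 between -0.69 and -0.18. Hsp68 passed in 3 of the 18, with the replicate number as a block, without control replicate 2 and without both libraries numbered 2. Hsp83 passed in 1, with the replicate number as a block.

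**Figure D4:**
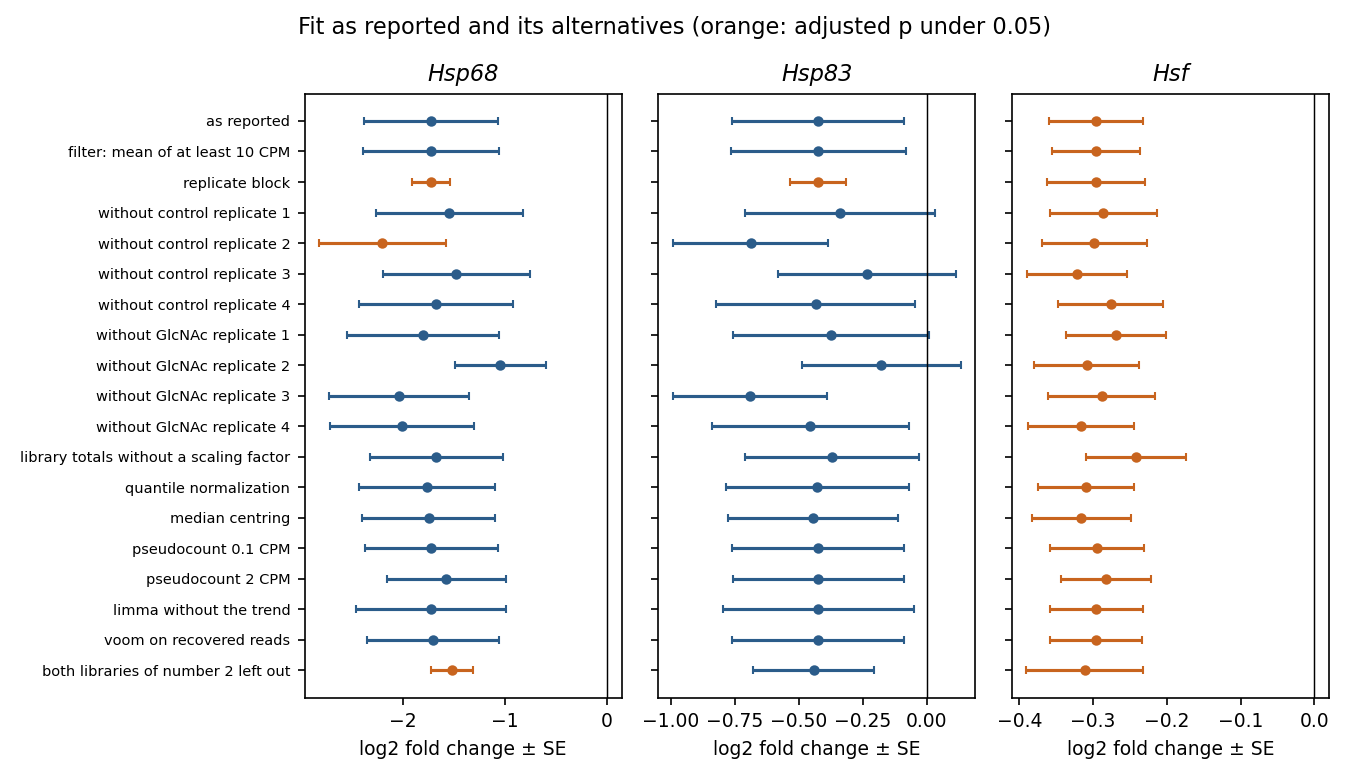
Log2 fold change ± standard error of Hsp68, Hsp83 and Hsf as reported and under 18 alternatives, with points past an adjusted p of 0.05 in orange; the horizontal axes differ. All values are below 0, and Hsf alone passes in every one.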

How the data were processed

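The methods of the study state that single-end reads were trimmed with Trimmomatic, mapped with TopHat2 2.1.0 to the FlyBase genome and counted on exons by strand with HTSeq. Genes had to exceed 1 CPM in 3 or more replicates of either condition. The authors deposited log2 CPM with a read offset of 0.5. Whole reads were recovered for 100% of 61368 values (tolerance 0.01). The authors' own fold changes, t and F statistics and p-values, in the same table, were not used.

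All genes were fitted with limma 3.58.1 in R 4.3.3 (trend, condition only, Benjamini-Hochberg over 7671 genes). Exon lengths and positions come from Ensembl release 115. Reads sharing antisense exons are few by annotation, at 13 bases for Hsp68 and 15 for Hsp83. Pseudocounts of 0.1 and 2 CPM and a filter of 10 CPM were among the alternatives. Replicates of a group differed beyond sampling noise. The p-values of limma set each group difference against the spread between the 4 samples of a group. That spread is drawn toward the spread of genes of similar level. The standard error was therefore smaller for Hsp68, and larger for Hsf, than the spread of the gene alone gives. The number of intestines per sample is not given. Groups and replicate numbers come from the sample labels. Named network genes were those past the threshold and the 2 most expressed of each list, and for each heat shock gene the 2 genes nearest in profile. Hsp70Bb and Hsc70-4 were named after their values were seen. The members and lists were chosen with earlier results of these data known.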

Additional observations from a re-analysis of the deposited data

Results flagged for a closer look

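Over the 3 heat shock genes and 54 network genes, 114 groups of 4 libraries were searched for a library far from the other 3 by Dixon's criterion, which chance meets in about 1 in 20 groups, and 5 met it, none of them in Hsp68, Hsp83 or Hsf. Hsp70Bb was at 22.7 CPM in control replicate 4, with the nearest control library at 10.4 CPM. Droj2 was lowest in control replicate 2 at 123 CPM, with the nearest library at 149.9 CPM. The chaperonin subunits T-cp1 and Tcp-1eta were lowest in GlcNAc replicate 2, at 191 and 189 CPM, with the nearest GlcNAc libraries at 224 and 226 CPM. CG5446, a homologue of the heat shock factor binding protein, was highest in control replicate 3 at 7.41 CPM, with the nearest library at 5.66 CPM.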

How the results depend on the processing

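Of the 7671 genes, 1177 passed as reported, 463 with a change of at least 1.5-fold required as well, and 852 to 1111 with 1 library left out. The number of heat shock genes lower on GlcNAc was 1 as reported, 0 with the 1.5-fold requirement, 1 to 2 with 1 library left out and 2 with both libraries numbered 2 left out, and 0 were higher in all 19 alternatives. With the replicate number as a block, 1324 genes passed and 3 heat shock genes were lower (7.53% of all genes were), with adjusted p-values from limma of 0.000687 for Hsp68 and 0.031 for Hsp83. The paper states that samples of both groups were taken in parallel, but the labels tie no replicate number to a shared collection. The numbers were therefore not taken to pair the samples. The correlation of same-numbered deviations ran from -0.06 to 0.40, and 2 of 4 control libraries correlated best with their own number. Such weak and mixed correlations cannot decide whether equal numbers were collected together. Library totals without a scaling factor moved the median of all genes to 0.07 and Hsf to -0.24 on the log2 scale, and ended the calls of CG7133, Hsc70Cb and Sirt1 (adjusted p from limma of 0.078, 0.059 and 0.072). No heat shock gene reversed direction. The deposited unit is log2 CPM. A planned count-based test on the recovered reads was not run, and voom on these reads was used in its place. The lowest Hsp68 library rests on 41 reads.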

Other observations

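The constitutive Hsp70 gene Hsc70-4 was listed at 7.37 ± 2.00 CPM in control and 6.46 ± 1.32 CPM on GlcNAc (SD, n = 4). Its mean was below that of the inducible Hsp68 in both groups. In GlcNAc replicate 2 the order was reversed, with Hsc70-4 at 5.58 CPM and Hsp68 at 4.33 CPM. DnaJ-1, an Hsp40 gene, was listed at 1.44 CPM in control and 1.16 CPM on GlcNAc. The cause of these low levels was not tested.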
